A study of Mus musculus with 12 samples.

Results

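Mast cells, basophils and eosinophils are the granulocytes of allergy and of defence against parasites, and all of them arise from blood progenitors of the kind that fetal liver houses. The results concern 8 genes that mark these cells: Mcpt8, Prss34, Cpa3, Cma1, Prg2, Epx, Fcer1a and Ms4a2. They were taken by symbol from the platform's gene table, which gave 1 probe set for each, and make up 8 of the 19935 genes that have a probe set of their own. The RNA came from whole livers of male mouse fetuses of the 129/S6 (taconic) strain, collected at 18.5 days post coitum. A wild-type group of 6 arrays was compared with 6 arrays labelled as double knockout for macroH2A1 and macroH2A2. Embryos of both genotypes had been mixed before transfer to wild-type recipient females, and neither group received a treatment. How the alleles were made and which fetuses shared a recipient are not given in the labels, and nothing says outright that each array is a separate fetus, so p-values measure the spread between these samples. MacroH2A is a large histone variant associated with repressed chromatin, and the comparison asks whether these granulocyte genes differ in late fetal liver without it.

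Each of these cells keeps its own set of proteins in storage granules. Basophils of the mouse hold the proteases encoded by Mcpt8 and Prss34, and connective tissue mast cells hold chymase, encoded by Cma1, together with the carboxypeptidase encoded by Cpa3, which basophils and early progenitors also express. Eosinophils hold major basic protein, encoded by Prg2, and eosinophil peroxidase, encoded by Epx. Mast cells and basophils are set off by antigen through the high-affinity IgE receptor, in which the chain encoded by Fcer1a binds IgE and the chain encoded by Ms4a2 amplifies the signal. GATA factors and C/EBP factors take part in the formation of these lineages.

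The stretch before the start site was available for 7 of the 8 genes, all but Prg2, in RefSeq's annotation of GRCm38.p6. It was searched, from 250 bases before to 50 after the start, for the GATA-type motif AGATAA and for the C/EBP-type motif TTGCNNAA on both strands. AGATAA was found in Prss34, Cpa3, Fcer1a and Ms4a2, or 4 of 7, while 11.2% of all 32851 windows of the same length held it. TTGCNNAA was found in Fcer1a alone, against 10.8% of all windows. The stretches below show where the GATA-type letters lie before these 4 genes. Each GATA-type match is in capitals (TTATCT is the match on the other strand). The Fcer1a stretch also holds its TTGCNNAA match (ttgcccaa), left in lower case. The Ms4a2 stretch holds 2 of that gene's 3 matches. Epx is shown beside them as the gene of the widest range over the arrays, and it holds neither motif in this window. A match in letters is a description and no binding was measured.
Prss34, chr17:25298336-25298393, plus strand: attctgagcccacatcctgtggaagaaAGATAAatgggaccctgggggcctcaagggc
Cpa3, chr3:20242195-20242254, minus strand: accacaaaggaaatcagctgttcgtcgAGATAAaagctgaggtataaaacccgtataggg
Fcer1a, chr1:173227289-173227348, minus strand: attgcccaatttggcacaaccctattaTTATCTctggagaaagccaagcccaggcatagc
Ms4a2, chr19:11623724-11623783, minus strand: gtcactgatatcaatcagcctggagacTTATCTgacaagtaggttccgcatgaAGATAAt
Epx, chr11:87875537-87875786, minus strand: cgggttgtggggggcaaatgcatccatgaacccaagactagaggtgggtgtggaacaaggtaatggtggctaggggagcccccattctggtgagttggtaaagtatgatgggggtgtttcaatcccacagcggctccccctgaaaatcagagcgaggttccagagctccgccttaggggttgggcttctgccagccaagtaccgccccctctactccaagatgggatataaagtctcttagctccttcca

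Values are log2 expression values per probe set, as the authors deposited them. Array medians lay between 7.55 and 7.61 and the 25th percentile of an array between 6.13 and 6.28. Probe sets bind with different strength, so levels are compared between arrays for 1 gene and not between genes. On all 12 arrays Ms4a2, Fcer1a and Cma1 lay under their array's 25th percentile, as Mcpt8 did on 3 arrays, and background was not analysed here, so low values of these genes cannot be told from background. Among the mast cell and basophil genes, Prss34 and Cpa3 stayed above the 25th percentile on every array. Prg2 and Epx lay above the array medians on every array.

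The targeted genes were examined as a check of the labels. Macroh2a1 lay between 10.14 and 10.52 on wild-type arrays and between 9.52 and 9.67 on double-knockout arrays, with no overlap (limma adjusted p = 3.5e-05). Macroh2a2 lay between 9.09 and 9.52 and between 8.71 and 9.58, with a log2 difference of -0.09 (limma adjusted p = 0.992), and whether its probes lie in the deleted part was not examined here. Some arrays stood apart in other tissues' markers: wild-type replicate 6 was high for intestine and stomach (list mean 7.41, other wild-type arrays up to 7.01) and double-knockout replicate 5 for skin (7.82, other double-knockout arrays up to 7.39). Without both arrays 0 of the 8 genes was called, and signs turned for Fcer1a (-0.025) and Cma1 (0.0093).

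None of the 8 genes passed the test of a difference between the genotypes. With limma and Benjamini-Hochberg adjustment over all genes, 0 of 8 had an adjusted p under 0.05, where 3 of 19935 genes did (0.0150%), and 0 of 8 had an unadjusted p under 0.05, where 783 genes did (3.93%). The 2 groups of arrays overlapped for every one of the 8 genes, while they did not overlap for 42 genes in the whole table (0.211%). Means were lower in the double knockout for 4 genes and higher for 4, with a median log2 difference of -0.01, beside 0.01 over all genes, of which 41.0% had lower means. The 95% intervals of the 8 differences lay between -0.30 and 0.32 on the log2 scale, that is, between 1.23-fold lower and 1.24-fold higher in the double knockout. In whole liver, fewer cells of a type and less RNA per cell cannot be told apart.

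**Figure D1:**
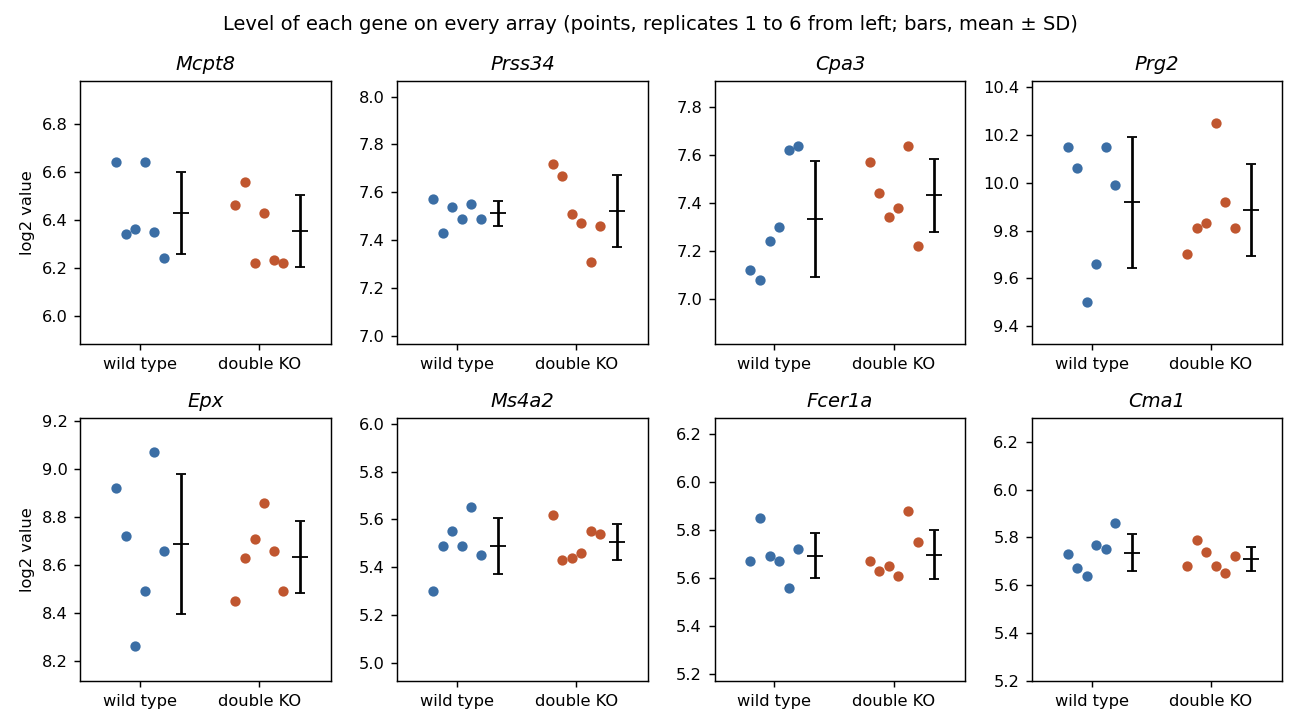
Log2 value of each of the 8 genes (vertical axis, each panel 1.1 log2 units high) on the 6 wild-type and 6 double-knockout arrays (points), with the mean and SD of each group (bars). The points of both groups overlap in every panel, and Prg2, Epx and Cpa3 spread more widely than Cma1, Fcer1a and Ms4a2.

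The eosinophil granule genes had the widest ranges of the 8. Prg2 (probe set 10473399, chromosome 2) measured 10.15, 10.06, 9.50, 9.66, 10.15 and 9.99 on wild-type replicates 1 to 6, and 9.70, 9.81, 9.83, 10.25, 9.92 and 9.81 on double-knockout replicates 1 to 6. The highest array was double-knockout replicate 4 and the lowest wild-type replicate 3, and the 2 groups overlapped throughout. The wild-type mean was 9.92 ± 0.27 and the double-knockout mean 9.89 ± 0.19 (SD, n = 6 each), a log2 difference of -0.03 with a 95% interval from -0.28 to 0.22 (limma adjusted p = 0.995; exact permutation p = 0.829, 2-sided).

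Epx (probe set 10389654, chromosome 11) measured 8.92, 8.72, 8.26, 8.49, 9.07 and 8.66 on wild-type arrays and 8.45, 8.63, 8.71, 8.86, 8.66 and 8.49 on double-knockout arrays. Wild-type replicates 1 and 5 were high and replicate 3 was low, and the double-knockout arrays lay inside the wild-type range. The means were 8.69 ± 0.29 and 8.63 ± 0.15 (SD, n = 6 each), and the log2 difference of -0.05 had a 95% interval of -0.30 to 0.19 (limma adjusted p = 0.993; exact permutation p = 0.673). From the lowest to the highest array Epx spanned 0.81 log2 units, or 1.76-fold, and Prg2 spanned 0.75, or 1.68-fold. The SD within genotypes was 0.235 for Prg2 and 0.231 for Epx, which placed them at percentiles 96.0 and 95.8 among all genes, whose median was 0.099.

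Prg2 and Epx were high and low on the same arrays. Over the 12 arrays Prg2 and Epx had a Pearson r of 0.91 (permutation p = 6e-05) and a Spearman rho of 0.94 (permutation p = 7e-05). This was the 1 pair of the 28 among the 8 genes that passed after adjustment over the pairs, with adjusted p = 0.00168 for r and 0.00196 for rho. The r was 0.91 with each genotype centred on its mean, 0.94 in wild type alone and 0.87 in the double knockout alone, and 0.89 without the arrays farthest from the median of Prg2, wild-type replicate 3 and double-knockout replicate 4. Among the other 27 pairs r ran from -0.65 to 0.51, and the smallest adjusted p was 0.325. The lowest was that of Prss34 and Fcer1a (r = -0.65, rho = -0.55, permutation p = 0.0232 and 0.0688, adjusted p = 0.325 and 0.653), which was -0.19 after quantile normalization. Mcpt8 and Prss34, both basophil proteases, had r = 0.51 and rho = 0.54 (permutation p = 0.0938 and 0.0757, adjusted p = 0.805 and 0.653), or r = 0.72 without wild-type replicates 1 and 4.

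**Figure D2:**
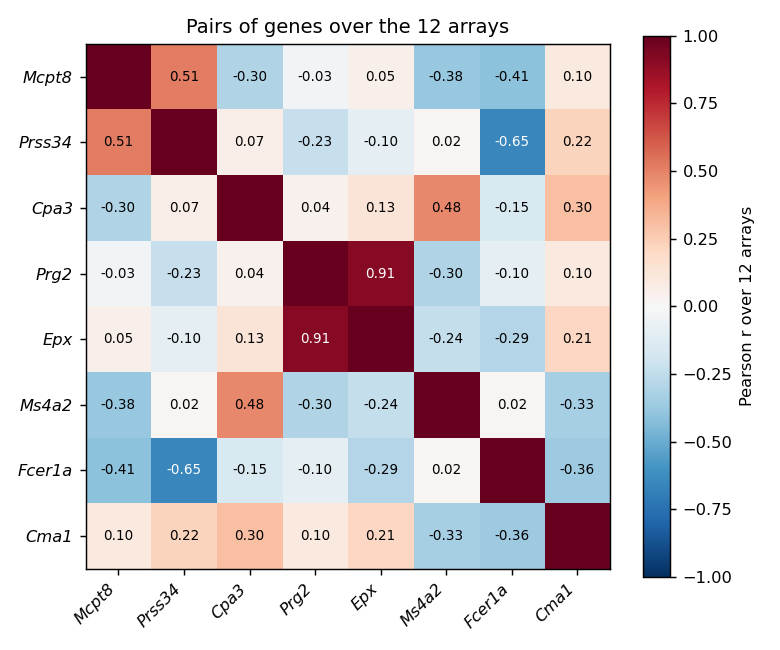
Pearson r over the 12 arrays for each pair of the 8 genes, from -1 (blue) to 1 (red). Prg2 and Epx stand out at 0.91, while the other 27 pairs lie between -0.65 and 0.51.

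The genes whose pattern over the arrays was most like that of Prg2 or Epx included other eosinophil genes. With each genotype centred on its mean, r with Prg2 ranked Alox15 first (0.94) and Ear6 second (0.93) among the 19934 other genes, then Epx, Prkar2a (0.90) and Prg3 (0.89). For Epx, Prg3 ranked first (0.96), followed by Prg2, Ear6 (0.90) and Ppp1r21 (0.90), with Alox15 at rank 27 (0.82). Prg3 encodes a homologue of major basic protein, Ear6 an eosinophil-associated ribonuclease and Alox15 a lipoxygenase of eosinophils and some macrophages. Prkar2a encodes a regulatory subunit of protein kinase A. These correlations are descriptions over 12 arrays.

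Of the 15 other eosinophil genes measured, 3 had an r of 0.8 or more with Prg2 and 3 with Epx, where 0.110% and 0.206% of all genes did. Surface receptors of the list had lower r with Prg2, from 0.65 for Adgre4 (rank 204), 0.58 for Adgre1 (rank 435) and 0.44 for Clec4a4 downwards. Siglecf, a lectin of eosinophils, had r = 0.27, Ccr3, the eotaxin receptor, r = 0.10, and Il5ra, the interleukin-5 receptor chain, r = -0.32. The rest of the list also had lower r with Prg2, so this was not limited to surface receptors. It was 0.31 for Rnase2a, 0.21 for Ear14, 0.13 for Ccl6, 0.0 for Rnase2b, -0.01 for Ptgdr2 and -0.29 for Ccl9. Il5ra, Ear14 and Rnase2b lay under the 25th percentile on all 12 arrays and Siglecf measured 7.77 to 8.03. Prg2 and Prg3, and the ribonuclease genes, are related in sequence, and whether their probes detect each other's transcripts was not tested.

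Ear6 measured 9.48, 9.47, 9.03, 8.98, 9.63 and 9.50 on wild-type arrays and 9.05, 9.23, 9.33, 9.50, 9.30 and 9.16 on double-knockout arrays. Prg3 measured 7.68, 7.63, 7.37, 7.52, 7.75 and 7.52, then 7.45, 7.44, 7.55, 7.65, 7.54 and 7.42. Alox15 measured 9.00, 8.89, 8.56, 8.68, 8.86 and 8.76, then 8.64, 8.71, 8.64, 8.99, 8.67 and 8.66. As for Prg2 and Epx, replicates 1 and 5 of the wild type and replicate 4 of the double knockout were above each gene's mean, and wild-type replicate 3 was below it. None of the 3 passed the test between genotypes, with log2 differences of -0.09 for Ear6, -0.07 for Prg3 and -0.07 for Alox15 (limma adjusted p = 0.992 each). Single arrays moved these by over 1.5 times. Ear6 ran from -0.16 without wild-type replicate 4 to -0.03 without wild-type replicate 5, Prg3 from -0.113 without wild-type replicate 3 to -0.036 without wild-type replicate 5, and Alox15 from -0.127 without double-knockout replicate 4 to -0.032 without wild-type replicate 1.

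**Figure D3:**
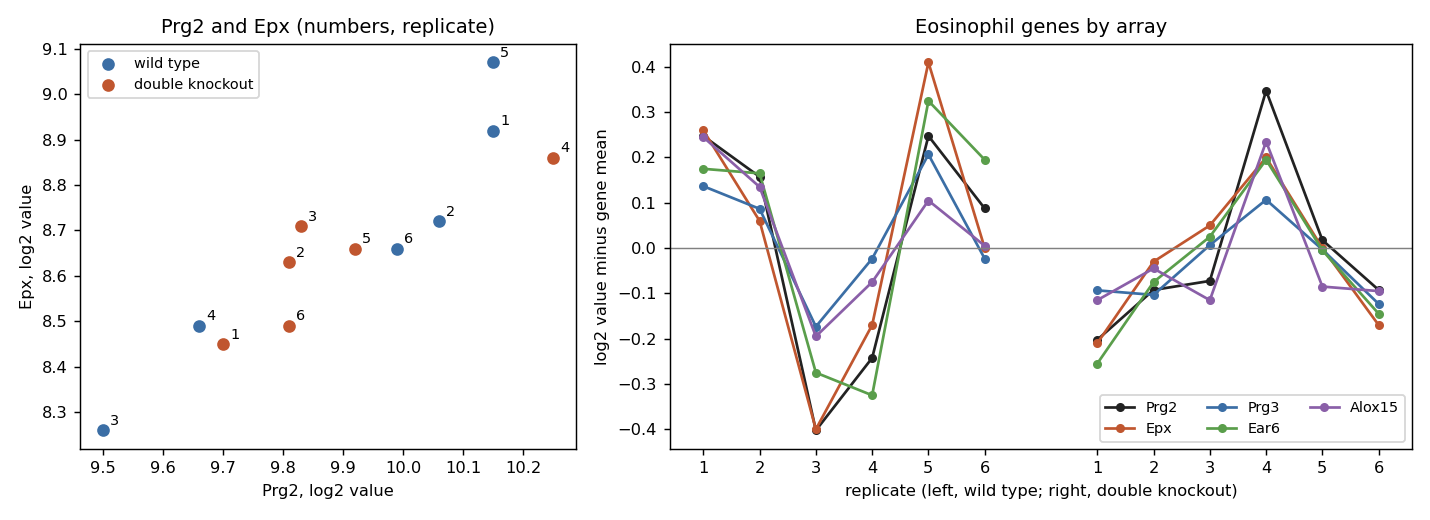
Left, log2 values of Epx against Prg2 on the 12 arrays, coloured by genotype and numbered by replicate (r = 0.91). Right, log2 value minus the gene's mean over the 12 arrays for Prg2, Epx, Prg3, Ear6 and Alox15 on each array; lines join values of 1 gene and the order of replicates has no meaning. All 5 genes are above their mean on replicates 1 and 5 of the wild type and replicate 4 of the double knockout, and below it on wild-type replicate 3.

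The basophil proteases did not pass the test between genotypes either. Mcpt8 (probe set 10420254, chromosome 14) measured 6.64, 6.34, 6.36, 6.64, 6.35 and 6.24 on wild-type arrays and 6.46, 6.56, 6.22, 6.43, 6.23 and 6.22 on double-knockout arrays. Wild-type replicates 1 and 4 were the highest, and 3 double-knockout arrays (replicates 3, 5 and 6) lay just under the lowest wild-type array. Means were 6.43 ± 0.17 and 6.35 ± 0.15 (SD, n = 6 each), with a log2 difference of -0.07 and a 95% interval from -0.25 to 0.10 (limma adjusted p = 0.992; exact permutation p = 0.416). The same 3 arrays, with wild-type replicate 6, had a narrower spread over all probe sets; without these 4 arrays the difference was 0.017. Leaving out 1 array moved it between -0.114 (without double-knockout replicate 2) and -0.031 (without wild-type replicate 4).

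Prss34 (probe set 10442762, chromosome 17) measured 7.57, 7.43, 7.54, 7.49, 7.55 and 7.49 on wild-type arrays and 7.72, 7.67, 7.51, 7.47, 7.31 and 7.46 on double-knockout arrays. The double-knockout group held both the highest and the lowest array. Its means of 7.51 ± 0.05 and 7.52 ± 0.15 (SD, n = 6 each) gave a log2 difference of 0.01 and a 95% interval from -0.12 to 0.14 (limma adjusted p = 0.996; exact permutation p = 0.879), and the sign turned after quantile normalization (-0.0056) or centring on array medians (-0.00025).

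The mast cell proteases were examined next. Cpa3 (probe set 10497451, chromosome 3) measured 7.12, 7.08, 7.24, 7.30, 7.62 and 7.64 on wild-type arrays and 7.57, 7.44, 7.34, 7.38, 7.64 and 7.22 on double-knockout arrays. Replicates 5 and 6 of the wild type and replicates 1 and 5 of the double knockout were high, and the lowest values came from wild-type replicates 1 and 2. Means were 7.33 ± 0.24 and 7.43 ± 0.15 (SD, n = 6 each), a log2 difference of 0.10 with a 95% interval from -0.12 to 0.32 (limma adjusted p = 0.992; exact permutation p = 0.42), and the difference was above 0 in all 12 fits that left out 1 array (0.046 to 0.158). Its SD within genotypes of 0.204 lay at percentile 93.9 of all genes. The genes with the most similar pattern were Frk, a kinase (r = 0.88), Ptn, which encodes the growth factor pleiotrophin (0.88), and Col3a1, a fibrillar collagen of connective tissue (0.86).

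Cpa3 was also compared with markers of tissues that can adhere to a dissected liver. Exocrine pancreas markers, 15 of 18 measured, had array means from 7.33 to 10.62 in wild type and from 7.37 to 10.65 in the double knockout. The group means of this list were 8.88 ± 1.51 and 9.59 ± 1.29 (SD, n = 6 each), and 0 of the 15 markers had a lower mean in the double knockout, with a median log2 difference of 0.71, so the list and Cpa3 were higher in the same group. Cpa3 and this list mean had r = 0.63 and rho = 0.53 (permutation p = 0.0318 and 0.0788), with r = 0.58 without wild-type replicate 1 and double-knockout replicate 3. Adjusted over 96 relations of the 8 genes with 12 cell type lists, these were 0.278 and 0.469, so the relation did not pass. With intestine and stomach markers r of Cpa3 was 0.46, or 0.62 with genotypes centred on their means (permutation p = 0.101 and 0.035). It was -0.14 without wild-type replicates 5 and 6. With skin markers r was 0.40, and with mesenchyme and mesothelium markers 0.48. None of these passed either (adjusted permutation p = 0.538, 0.669 and 0.546 for the uncentred r). The part of adhering tissue in the level of Cpa3 was not tested.

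Cma1 (probe set 10420225, chromosome 14) measured 5.64 to 5.86 in wild type, with a median of 5.74, and 5.65 to 5.79 in the double knockout, with a median of 5.70. Its range of 0.22 log2 units was the smallest of the 8 genes, and its SD within genotypes of 0.066 lay at percentile 13.7. Means of 5.74 ± 0.08 and 5.71 ± 0.05 (SD, n = 6 each) gave a log2 difference of -0.03 and a 95% interval from -0.12 to 0.07 (limma adjusted p = 0.992; exact permutation p = 0.511).

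Cma1 and Mcpt8 lie in 1 gene cluster of mast cell and basophil proteases on chromosome 14. From Cma1 to Mcpt8, 5 of 7 protein-coding genes were measured. The 3 measured between them were Mcpt1, Mcpt2 and Mcpt4. Mcpt1 and Mcpt2 encode chymase-like proteases known from mucosal mast cells. Mcpt2 measured 4.79 to 4.95 on the wild-type arrays and 4.84, 4.94, 5.18, 5.35, 4.84 and 5.49 on double-knockout replicates 1 to 6. Mcpt1 measured 4.77 to 5.01 in wild type and 4.79, 4.98, 5.07, 5.71, 4.87 and 5.46 in the double knockout. For both genes replicates 3, 4 and 6 lay above every wild-type array while the other 3 double-knockout arrays lay within the wild-type range.

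The log2 difference of Mcpt2 was 0.26 with a standard error of 0.10, an unadjusted p of 0.0219 and an adjusted p of 0.992 in limma (exact permutation p = 0.0476), and that of Mcpt1 was 0.25 with a standard error of 0.13 (limma unadjusted p = 0.0766, adjusted p = 0.992). Neither passed. Without double-knockout replicate 6 Mcpt2 differed by 0.181, and without replicate 4 Mcpt1 differed by 0.137. All values of both genes lay under the 25th percentile of their arrays, and as neighbours of related sequence the 2 probe sets may not be independent. Intestine and stomach markers had means of 6.90, 6.91 and 6.88 on double-knockout replicates 3, 4 and 6. On the other double-knockout arrays the means were 6.87, 6.92 and 6.89. The part of adhering tissue in the values of Mcpt1 and Mcpt2 was not tested. Mcpt4, a chymase of connective tissue mast cells, measured 4.85 to 5.03 and 4.90 to 5.05 and differed by 0.06 (limma adjusted p = 0.992). It too lay under the 25th percentile on all 12 arrays.

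**Figure D4:**
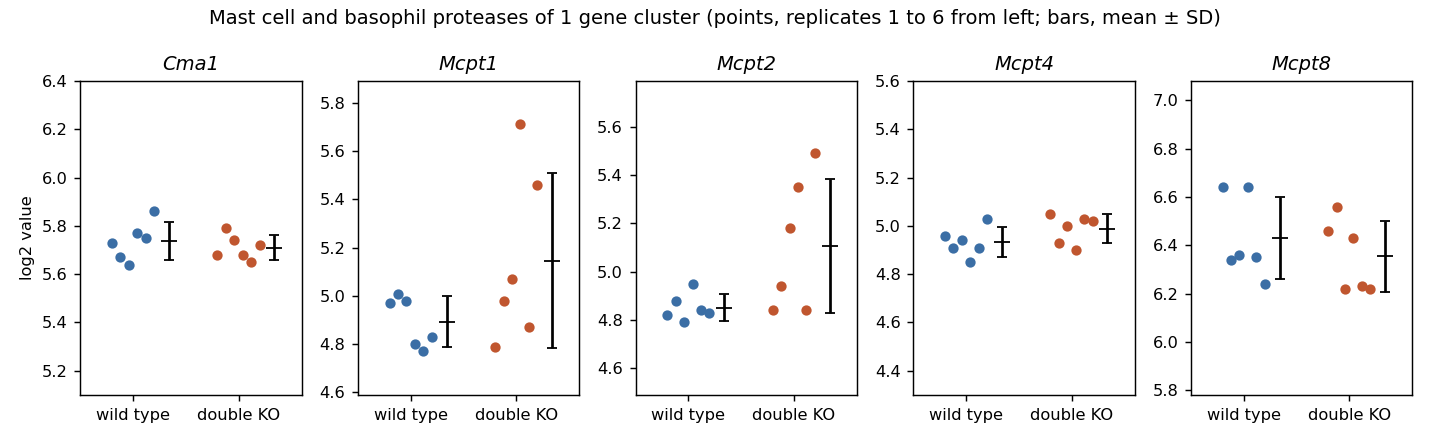
Log2 value (vertical axis, each panel 1.3 log2 units high) of 5 protease genes of the chromosome 14 cluster on the 6 wild-type and 6 double-knockout arrays (points), with mean and SD (bars). Mcpt1 and Mcpt2 are above all wild-type arrays on double-knockout replicates 3, 4 and 6, Mcpt8 is below all of them on replicates 3, 5 and 6, and the groups overlap for all 5 genes.

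The alpha and beta chain genes of the IgE receptor, Fcer1a and Ms4a2, measured under the 25th percentile of every array. The gamma chain gene Fcer1g, which other Fc receptors of myeloid cells also use, measured 11.40 to 11.53 on wild-type arrays and 11.36 to 11.59 on double-knockout arrays (log2 difference -0.01, limma adjusted p = 0.995); it was chosen after its values were seen. Fcer1a (probe set 10360338, chromosome 1) lay between 5.56 and 5.85 in wild type, with a median of 5.68, and between 5.61 and 5.88 in the double knockout, with a median of 5.66. The means were 5.69 ± 0.09 and 5.70 ± 0.10 (SD, n = 6 each), with a log2 difference of 0.01 and a 95% interval from -0.11 to 0.12 (limma adjusted p = 0.996; exact permutation p = 0.909). The array of highest value was double-knockout replicate 5. Its most similar genes over the arrays were the olfactory receptor gene Olfr345 (r = 0.91), 4930480E11Rik (0.91) and the olfactory receptor gene Olfr77 (0.90), all under the 25th percentile on all 12 arrays.

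Ms4a2 (probe set 10466216, chromosome 19) measured 5.30 to 5.65 in wild type, with a median of 5.49, and 5.43 to 5.62 in the double knockout, with a median of 5.50. Means of 5.49 ± 0.12 and 5.51 ± 0.08 (SD, n = 6 each) gave a log2 difference of 0.02 and a 95% interval from -0.10 to 0.14 (limma adjusted p = 0.994; exact permutation p = 0.745). Its sign and that of Fcer1a turned after quantile normalization (-0.0013 and -0.012).

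**Figure D5:**
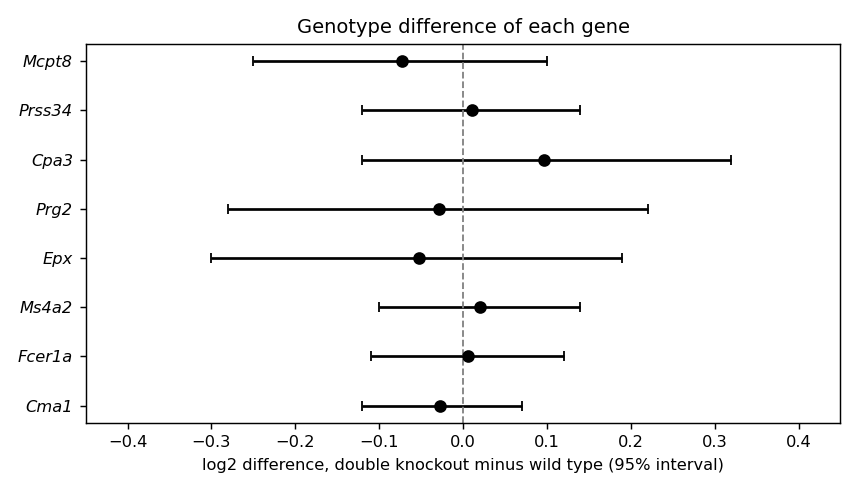
Log2 difference of each of the 8 genes, double knockout minus wild type (points), with its 95% interval from the limma fit (bars). Every interval includes 0, and the widest are those of Prg2, Epx and Cpa3.

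Related genes were examined in 7 lists, which hold 132 measured genes besides the 8. Over these lists 0 genes passed at adjusted p under 0.05 and 8 had an unadjusted p under 0.05 in limma, or 6.06%, beside 3.93% of all genes. Means were lower in the double knockout for 69 and higher for 63, with a median log2 difference of -0.006. Over all genes 41.0% had lower means.

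Of 25 other mast cell genes, 18 had higher and 7 lower means, with a median difference of 0.03, and Mcpt2, Slc18a2, the transporter that loads histamine into granules, and Mrgprx2 had the smallest p (differences 0.26, 0.10 and 0.08). This list held Cpa1, which is a pancreatic carboxypeptidase and no mast cell marker. Cpa1 differed by 1.03 and the list's median was 0.03 without it. Of 15 other eosinophil genes 8 had higher and 7 lower means (median 0.007). Ptgdr2, a prostaglandin D2 receptor of eosinophils and basophils, differed by 0.15 (limma unadjusted p = 0.0123, adjusted p = 0.992), Rnase2b by 0.07 and Ear14 by -0.09. Of 21 other basophil genes 12 had higher and 9 lower means (median 0.02), with Csf2rb2 at -0.12, Il18r1 at -0.07 and Osm at -0.11. Csf2rb2 was 0.036 without the 4 arrays of narrower spread, Il18r1 was -0.031 without wild-type replicate 2, and Osm was -0.059 without wild-type replicate 1. Mcpt2, Mrgprx2, Rnase2b, Ear14 and Il18r1 lay under the 25th percentile on all 12 arrays and Osm on 3. Low values of these genes cannot be told from background.

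Of 18 genes of IgE receptor signalling, 15 had lower and 3 higher means, with a median log2 difference of -0.05. The share with lower means over all genes was 41.0%, and no test of the list as a set was run. Plcg2, a phospholipase, differed by -0.12 (limma unadjusted p = 0.0197), Syk, the kinase that binds the activated receptor, by -0.12 (0.0246) and Inpp5d, a lipid phosphatase that restrains the signal, by -0.11 (0.0561), each with an adjusted p of 0.992. Syk measured 8.93 to 9.01 in wild type and 8.69 to 9.01 in the double knockout, so the groups overlapped. Without the 4 arrays of narrower spread Syk differed by -0.068 and Inpp5d by -0.051. B cells use several of these proteins too, and lymphoid markers, of which 14 of 19 measured had lower means, had array means from 7.10 to 7.23 in wild type and 6.94 to 7.11 in the double knockout. Their part in these differences was not tested.

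Of 16 genes of granule storage and lipid mediators 9 had lower and 7 higher means (median -0.03). Serpinb1a, which encodes an inhibitor of granule proteases, differed by -0.23 (limma unadjusted p = 0.0247, adjusted p = 0.992), Ptgs2 by -0.09 and Ctsg, cathepsin G, by -0.10. Serpinb1a and Ctsg are genes of neutrophils as well. Of 22 neutrophil markers, Ctsg among them, 21 had lower means, where 41.0% of all genes did. The array means of this marker list ran from 10.48 to 10.65 in wild type and from 10.30 to 10.54 in the double knockout. The part of neutrophils in these differences was not tested. Of 23 transcription factors of these lineages 15 had lower and 8 higher means (median -0.02), with Irf8 at -0.13 (limma unadjusted p = 0.0157), Id2 at 0.10 and Spi1 at -0.08. Of 14 growth factors and receptors 7 were lower and 7 higher (median -0.006). Il7r, the receptor of lymphoid precursors, differed by -0.25 (limma unadjusted p = 0.00943), Il33, which activates mast cells and basophils, by 0.13 (0.037) and Tgfb1 by -0.13. The adjusted p was 0.992 for each of these genes. Without the 4 arrays of narrower spread Il7r differed by -0.086, Serpinb1a by -0.125, Spi1 by -0.047 and Id2 by 0.216.

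The levels of other cell types were set beside the 8 genes over the arrays, in 96 relations of which 0 passed after adjustment, with a smallest adjusted p of 0.188. Unadjusted, 12 had a permutation p under 0.05 for r. The smallest was that of Prss34 with megakaryocyte and platelet markers (r = 0.79, permutation p = 0.00242, adjusted p = 0.188; rho = 0.52, permutation p = 0.0831, adjusted p = 0.469), and r was 0.49 without double-knockout replicates 1 and 5. Prss34 also had r = 0.73, 0.72 and 0.58 with hepatocyte, stem and progenitor, and endothelial markers. Adjusted permutation p were 0.188, 0.188 and 0.384, and r without the 2 farthest arrays 0.68, 0.54 and 0.19. Cma1 had r = 0.75 with intestine and stomach markers (adjusted permutation p = 0.188), or 0.51 without wild-type replicates 5 and 6. Fcer1a had r = 0.64 with skin markers (adjusted permutation p = 0.278), or -0.15 without replicate 5 of each genotype. Cma1 and Fcer1a lay under the 25th percentile on all 12 arrays and cannot be told from background here. Mcpt8 lay under the 25th percentile on 3 arrays and was lowest (6.22 to 6.24) on the 4 arrays of narrower spread. The part of this in its relations was not tested. Its r too was similar over several lists. It was 0.72 with stem and progenitor markers (permutation p = 0.00977, adjusted p = 0.188; rho = 0.65, permutation p = 0.0254, adjusted p = 0.407), or 0.64 without double-knockout replicates 2 and 5. With lymphoid, endothelial, neutrophil and macrophage markers r was 0.68, 0.67, 0.66 and 0.65 (permutation p from 0.0161 to 0.0221, adjusted p from 0.217 to 0.236). With the same lists rho was 0.65, 0.76, 0.73 and 0.51 (permutation p from 0.00557 to 0.0938, adjusted p from 0.407 to 0.474). Without the 2 farthest arrays r was 0.55, 0.54, 0.53 and 0.70. With each genotype centred on its mean, r of Mcpt8 with lymphoid markers was 0.87 (permutation p = 0.00096, not adjusted). Centred r was 0.76 with stem and progenitor markers, and 0.66, 0.69 and 0.65 with endothelial, macrophage and neutrophil markers. For Prss34 and lymphoid markers centred r was 0.67 (permutation p = 0.0396, not adjusted). For Prg2 and Epx the r with the neutrophil list was 0.13 and 0.05 (rho 0.12 and 0.14, permutation p from 0.667 to 0.884, adjusted p from 0.891 to 0.968), and with the macrophage list 0.29 and 0.18 (rho 0.22 and 0.15, permutation p from 0.362 to 0.634, adjusted p from 0.832 to 0.885).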

How the data were processed

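Liver RNA was measured on 12 Affymetrix gene arrays, 6 in each genotype. The authors deposited log2 values per probe set, processed with Affymetrix Expression Console per the submitters' processing notes. How it summarised probes and corrected background, and its version, were not given in the sources used here. Values from 3.73 to 14.5 were read as log2. Of 28815 probe sets, 21780 name 1 gene in the platform's table, and symbols were updated by gene ID through RefSeq's GRCm38.p6 table. Where a gene had several probe sets, the one with the highest mean was used. Genotypes were compared in limma 3.58.1 (R 4.3.3), double knockout minus wild type, 2-sided, with Benjamini-Hochberg adjustment over 19935 genes. The number of arrays limits the precision, with a median standard error of 0.0565. Exact permutation tests ran over all 924 splits of the arrays, and correlations had 100000 permutations. The fit and the correlation test were tested on simulated data. The genes and lists were chosen with earlier results of these data known. The text names the 8 genes, the 3 genes of smallest p per related list, and the 3 genes outside the 8 most like each, and other genes were chosen after their values were seen.

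Alternatives were quantile normalization, centring on array medians, leaving out dim genes, another prior, array weights, a replicate block, all probe sets of a gene, and leaving out arrays. Cell type lists were averaged per array. Their correlations with the 8 genes, and the look at the protease cluster, were chosen after values were seen. Each array was taken as 1 fetus. Promoter sequences come from RefSeq.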

Additional observations from a re-analysis of the deposited data

Results flagged for a closer look

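An array that stood far from the other 5 of its genotype, by the ratio of its gap to the range of the group (above Dixon's 95% critical value), was found in 8 of 138 groups examined, where chance gives about 1 in 20. None of the 16 groups of the 8 genes was among them. Double-knockout replicate 4 stood high for Alox15 (8.99, next array 8.71) and Prkar2a (9.79, next 9.60), which follow Prg2. Wild-type replicate 5 stood low for Ccr3 (6.71, next 6.87), wild-type replicate 6 stood high for Ear14 (4.99, next 4.85), and wild-type replicate 1 stood high for Paqr5 (7.27, next 7.18), a gene whose pattern is like that of Prss34. Among list means, wild-type replicate 6 stood low for erythroid markers (11.19, next 11.48) and high for intestine and stomach markers (7.41, next 7.01). Double-knockout replicate 5 stood high for skin markers (7.82, next 7.39).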

How the results depend on the processing

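No fit with another setting called any of the 8 genes; over 21 alternative fits their smallest adjusted p was 0.689 and their smallest unadjusted p 0.104. The median difference over all 8 ran from -0.023 to 0.018. The number of the 8 with lower means, 4 in the main comparison, was 7 after quantile normalization and 2 without the 4 arrays of narrower spread (wild-type replicate 6 and double-knockout replicates 3, 5 and 6). It was also 2 among genes above the median gene level, where only Prg2 and Epx are left (median -0.041). It was 3 to 5 when 1 array was left out. The number of genes called in the whole table, 3, ran from 2 to 6 in those fits, with 6 without double-knockout replicate 2.

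Some signs turned, and the cause was not tested. After quantile normalization Prss34 was -0.0056, Ms4a2 -0.0013 and Fcer1a -0.012. With centring on array medians Prss34 was -0.00025 and Fcer1a -0.0052, and with array weights Fcer1a was -0.017. Without wild-type replicate 6 and double-knockout replicate 5, Fcer1a was -0.025 and Cma1 0.0093. Without the 4 arrays of narrower spread, Mcpt8 was 0.017, Prg2 0.019, Fcer1a -0.049, Cma1 0.0028 and Csf2rb2 0.036, against -0.073 for Mcpt8 and -0.123 for Csf2rb2 with all arrays. Leaving out 1 array gave ranges of -0.028 to 0.054 for Prss34, -0.112 to 0.017 for Prg2, -0.138 to 0.025 for Epx, -0.019 to 0.051 for Ms4a2 and -0.03 to 0.037 for Fcer1a, and, with no turn of sign, -0.114 to -0.031 for Mcpt8, 0.046 to 0.158 for Cpa3 and -0.047 to -0.0018 for Cma1.

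The 1 pair of genes past the threshold, Prg2 and Epx, was also the 1 pair counted with Spearman's rho, with centred values and after quantile normalization. Replicate numbers are shared by the genotypes, and same-numbered arrays had correlated deviations for 5 of 6 numbers (0.166 to 0.49) but not for replicate 2 (-0.182). For 4 of 6 numbers the wild-type array correlated better with its same-numbered double-knockout array than with any other. For replicates 1 and 2 another double-knockout array correlated better (0.533 against 0.205, and 0.247 against -0.182). Not every number matched, and the main fit and the permutation tests took the samples as unpaired. Whether the numbers mark pairs or a shared batch was not tested. With the replicate number as a block 2 genes were called in place of 3, and 0 of the 8.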

Other observations

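Patterns over the arrays were also compared within the mast cell and basophil lists. With Mcpt8, 2 of 46 other mast cell and basophil genes had an r of 0.8 or more (genotypes centred on their means), where 1.09% of all genes did, and the highest was Osm, which encodes the cytokine oncostatin M (r = 0.88, rank 33). With Prss34 it was 1 of 46, beside 0.943% of all genes, namely Rab27b, a factor in granule release (r = 0.85, rank 57). With Cpa3, Ms4a2, Fcer1a and Cma1 it was 0 of 46. Ms4a2, Fcer1a and Cma1 cannot be told from background here, so their counts say nothing about a shared pattern. The genes most like Mcpt8 were Odf3l1 and Entr1 (0.96 each) and Akr7a5 (0.94), those most like Prss34 were Tor1aip1 (0.96), Tmem243 (0.92) and Paqr5 (0.91), those most like Ms4a2 were Dnaja1 (0.92), Tspan1 (0.86) and Rimklb (0.83), and those most like Cma1 were Adamtsl3 (0.97), Prag1 (0.92) and Btnl1 (0.90). These are descriptions over 12 arrays that share their scaling.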
